A study of Mus musculus with 32 samples.

Results

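Solute carriers (Slc genes) are membrane transporters, named by family and member number, that move amino acids, sugars, nucleotides, metal ions, lipids and other small molecules across the plasma membrane or the membranes of organelles. The genes described here were chosen by their symbol, which had to begin with Slc, a family number, the letter a and a member number, and by a mean of at least 100 normalized counts in both RNA-seq tables of the series. 141 genes met this rule, out of 280 genes with such a symbol in both tables and out of 23620 genes that both tables list. 10498 genes of any name reached the same mean in both tables and served as the background, and they are called expressed genes below. The level chose the members, so levels are described without a test. The rule itself did not use the binding data, but the members were chosen with earlier results of these data known.

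134 of the 141 symbols end with the member number, and 7 carry a suffix. Slc9a3r1, Slc4a1ap and Slc7a6os are named after a partner or a neighbouring gene and are not transporters. Slc25a5-ps, Slc39a1-ps and Slc2a4rg-ps are annotated as pseudogenes. Slc28a2b is a close copy of Slc28a2, and reads of copies and pseudogenes may have been divided between near-identical sequences, so their levels are uncertain. The transporters among the members belong to 42 families. The members nearest to the threshold were Slc25a27 with 101.7 in CD11b+ cells, Slc14a1 with 102.2 in CD11b+ cells and Slc12a5 with 115.6 in Lin- cells. Just outside it were Slc25a35 with 97.4, Slc25a42 with 93.2 and Slc16a13 with 92.5, all in CD11b+ cells.

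The series holds 32 mouse libraries from cells that carried the leukemia oncogene MLL-Af4. Lin- cells were lineage-depleted bone marrow cells that were transduced with an MSCV retrovirus carrying MLL-flag-Af4 and selected with G418 in culture. CD11b+ cells were selected with magnetic beads from spleen tumors of mice with MLL-Af4 leukemia, although the names of their eCLIP files carry the letters for bone marrow. RNA-seq covered 12 libraries, 3 of wild type (WT) and 3 of Igf2bp3 knockout (I3KO) cells in each cell type. I3KO mice carry a germline deletion of Igf2bp3 that arose in a cross with Vav1-Cre mice, and WT donors were C57BL/6J. The ages of the sampled mice are not given in the labels. Enhanced crosslinking and immunoprecipitation (eCLIP) of IGF2BP3 was made from WT/MLL-Af4 cells, with 3 biological and 3 technical libraries of Lin- cells and 2 biological and 2 technical libraries of CD11b+ cells, and each had a size-matched input (smInput). The labels do not say which biological library a technical library repeats, and nothing in them says that the libraries came from separate animals, so the tests measure the spread between these libraries.

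The RNA-seq tables give, for each gene, the authors' mean of normalized counts over the 6 libraries of both genotypes, and the tables of the cell types were normalized separately. No spread between libraries can be given for these levels. Read depth of the eCLIP libraries is unknown, and the yield is given by the number of smInput-filtered peaks, 4040 to 10054 per library. The Lin- markers Kit, Cd34, Flt3, Gata2 and Meis1 ranked higher among genes in the Lin- table than in the CD11b+ table, and Myb did not. The gene of the CD11b antigen itself, Itgam, had a mean of only 17.0 in CD11b+ cells, at the 41.9th percentile of that table, whereas the myeloid genes Lyz2, Csf1r, Ly6c2, Adgre1 and Cd14 all lay at or above the 89.8th percentile. In the Lin- table the same myeloid genes lay, in this order, at the percentiles 99.7, 97.9, 94.4, 77.4 and 69.3. Lyz2, Csf1r and Ly6c2 were thus high in both cell types. Of the red cell markers, globin transcripts were higher in the CD11b+ table, with Hbb-bs at 1083 against 52.2, whereas Klf1 was lower. Their part in the results below was not tested, and fewer cells of a type and less RNA per cell cannot be told apart in such bulk samples. The loss of Igf2bp3 RNA in I3KO cells was not checked here, since the table means mix both genotypes and the authors' genotype comparison was not used.

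IGF2BP3 belongs to the insulin-like growth factor 2 mRNA-binding proteins, whose KH and RRM domains contact RNA in the cytoplasm. Family members are known for binding mRNA at CA-rich elements and for effects on the stability and translation of the bound transcripts. In eCLIP, RNA bound to the protein is crosslinked, cut and sequenced, and a peak marks a stretch with more reads than its surroundings. Rapidly dividing blood cells depend on solute carriers for amino acids such as glutamine and leucine, for the exchange of ATP and phosphate with mitochondria, and for metals and lactate.

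The sequences of the sites that recurred between libraries came in several kinds, and examples of each are printed because the place and the base composition of the sites carry much of what follows. All coordinates are GRCm38 (mm10), bases are written 5′ to 3′ on the strand of the gene with T for U, and a site is the union of overlapping peaks of a cell type. The most frequent kind in Lin- cells lay across the 3′ splice site of an intron, with the pyrimidine-rich end of the intron followed by the first bases of a coding exon. In the following sites of Lin- cells the capitals mark the coding exon and the lower case marks the intron.

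Slc38a2 (chr15:96693331-96693387, minus strand): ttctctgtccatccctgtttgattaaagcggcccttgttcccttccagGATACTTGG

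Slc38a2 (chr15:96691428-96691491, minus strand): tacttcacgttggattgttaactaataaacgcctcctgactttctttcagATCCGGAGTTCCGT

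Slc38a2 (chr15:96691797-96691859, minus strand): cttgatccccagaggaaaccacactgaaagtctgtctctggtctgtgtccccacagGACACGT

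Slc3a2 (chr19:8709400-8709460, minus strand): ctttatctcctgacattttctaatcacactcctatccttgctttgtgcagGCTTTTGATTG

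Slc3a2 (chr19:8709125-8709187, minus strand): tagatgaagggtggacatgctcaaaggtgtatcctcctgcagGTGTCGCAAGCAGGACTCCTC

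Slc38a1 (chr15:96586956-96587027, minus strand): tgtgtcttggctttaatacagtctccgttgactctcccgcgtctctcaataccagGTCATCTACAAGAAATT

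Slc25a3 (chr10:91117267-91117369, minus strand): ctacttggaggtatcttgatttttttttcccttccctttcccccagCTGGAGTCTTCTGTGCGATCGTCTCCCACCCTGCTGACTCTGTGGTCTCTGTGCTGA

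Slc25a5 (chrX:36796786-36796845, plus strand): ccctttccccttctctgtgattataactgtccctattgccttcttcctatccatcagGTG

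Slc44a2 (chr9:21342908-21342973, plus strand): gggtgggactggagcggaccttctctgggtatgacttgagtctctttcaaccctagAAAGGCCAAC

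Slc27a1 (chr8:71585295-71585367, plus strand): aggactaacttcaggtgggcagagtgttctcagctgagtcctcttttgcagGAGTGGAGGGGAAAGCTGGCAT

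Another kind, frequent in CD11b+ cells, consisted of CA repeats, here shown as the 30 bases around the centre of the peak with the most reads, with every ACACAC or CACACA in capitals.

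Slc44a2, intron, CD11b+ (chr9:21341141-21341170, plus strand): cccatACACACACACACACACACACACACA

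Slc49a4, intron, CD11b+ (chr16:35729742-35729771, minus strand): ACACACACACAagCACACACgcatACACAC

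Slc16a10, intron, CD11b+ (chr10:40128906-40128935, minus strand): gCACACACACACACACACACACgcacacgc

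Slc16a10, intron, CD11b+ (chr10:40127958-40127987, minus strand): cacattcatACACACACtcagACACACAtt

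Slc30a7, intron, CD11b+ (chr3:115971812-115971841, minus strand): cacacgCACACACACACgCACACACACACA

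Slc31a2, 3′ UTR, CD11b+ (chr4:62298246-62298275, plus strand): aaACACACACACACACACACACACACACAC

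A further kind was the complement, TG repeats on the strand of the gene. The last 2 sequences of this set are rich in pyrimidines and hold neither repeat, and all of the set are printed without capitals because none holds the CA 6-mers.

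Slc49a4, intron, CD11b+ (chr16:35765284-35765313, minus strand): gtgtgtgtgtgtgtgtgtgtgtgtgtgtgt

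Slc25a12, intron, CD11b+ (chr2:71300907-71300936, minus strand): gtgtgtgtgtgtgtaagatcgggtttagct

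Slc38a10, intron, CD11b+ (chr11:120123597-120123626, minus strand): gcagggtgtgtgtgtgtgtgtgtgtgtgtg

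Slc11a1, intron, CD11b+ (chr1:74382616-74382645, plus strand): tctctctcttccccttccttccttccttcc

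Slc2a9, intron, CD11b+ (chr5:38486391-38486420, minus strand): ctgctcatcctccctgctcatcctccctgc

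The levels of the members were spread over more than 2 orders of magnitude in Lin- cells, from 115.6 for Slc12a5 to 17532 for Slc1a1, with a median of 1067 normalized counts. In CD11b+ cells they ran from 101.7 to 7046, with a median of 593.3. Per kb of merged exon, which allows genes to be compared, the median member had 300.3 normalized counts in Lin- cells against 435.9 for the other expressed genes. In CD11b+ cells these medians were 169.4 and 264.3. The median member thus stood at the 36.1st percentile of expressed genes in Lin- cells and at the 35.7th in CD11b+ cells. Members were also longer than the other expressed genes, with a median span of 29.9 kb from start to end against 21.1 kb.

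The highest level per kb in both cell types belonged to a mitochondrial carrier. Slc25a5, the ADP/ATP carrier of the inner mitochondrial membrane, had 6230 normalized counts per kb in Lin- and 5682 in CD11b+ cells. Slc25a3, the mitochondrial phosphate carrier, had 4907 and 2531. In Lin- cells they were followed by Slc1a1, a glutamate and aspartate transporter, with 4614, by Slc9a7, a sodium/proton exchanger of the Golgi, with 3223, and by Slc1a5, a glutamine transporter, with 2689. In CD11b+ cells they were followed by the choline transporter-like Slc44a2 with 1552, the heme transporter Slc48a1 with 1360 and the mitochondrial oxoglutarate carrier Slc25a11 with 1096.

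Between the tables, ranks moved most for the following genes. Because the tables were normalized separately, differences between them were centred on the median of all expressed genes, which lay at -0.74 on the log2 scale (CD11b+ over Lin-). Slc1a1 fell from the 97.0th to the 12.5th percentile per kb, a centred log2 difference of -5.30, and Slc9a7 fell from the 95.3rd to the 20.5th, a difference of -4.26. Slc27a1, a fatty acid transporter, went from 64.2 to 12.5. Slc38a1, a glutamine transporter, went from 83.2 to 41.8, and Slc7a5, the large neutral amino acid transporter that carries leucine, from 92.9 to 53.1. In the other direction, Slc11a1, a metal transporter of macrophage phagosomes, went from the 13.9th to the 75.3rd percentile, a centred log2 difference of 2.90. Slc31a2, a relative of the copper importer, went from 25.2 to 69.9, Slc2a9, a urate transporter, from 11.2 to 51.5, Slc22a4, a transporter of ergothioneine, from 39.1 to 77.0, and the pseudogene Slc25a5-ps from 6.88 to 49.5. Of all 141 members, 20 (14.2%) had a centred log2 difference above 1 and 27 (19.1%) one below -1, against 17.0% and 10.5% of the other expressed genes. These are single means that mix both genotypes, so they have no replicate check.

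**Figure D1:**
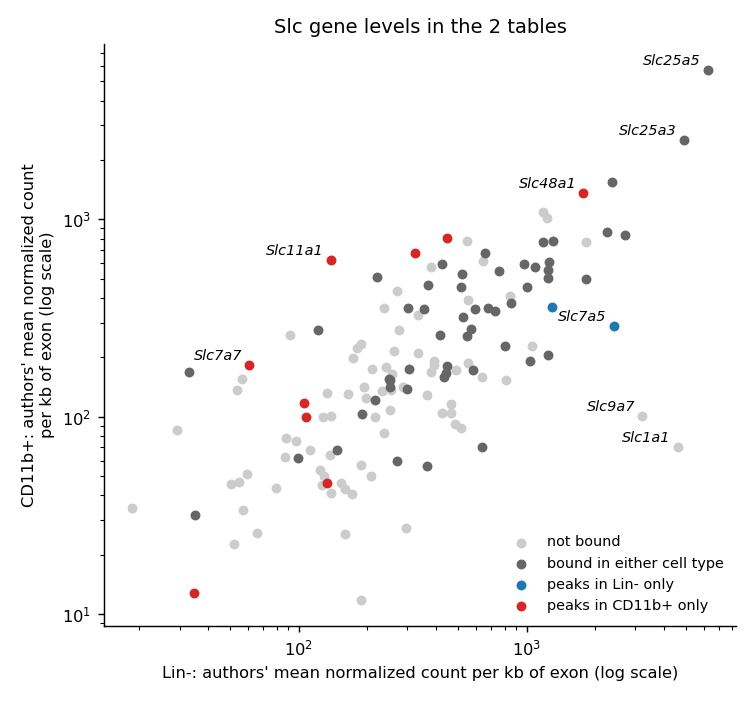
Level of each of the 141 genes in Lin- cells (x axis) and CD11b+ cells (y axis), as the authors' mean normalized count per kb of merged exon on log scales, coloured by IGF2BP3 binding. Slc1a1 (4614 and 70.3) and Slc9a7 (3223 and 101) lie far below the other genes of high Lin- level, and both are without a peak.

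A gene was called bound in a cell type where at least 2 biological libraries held a smInput-filtered peak with its identifier, that is 2 of 3 in Lin- and 2 of 2 in CD11b+ cells. The counts of bound genes in the classes below are small, and no class was tested. Their background, where not repeated, is 31.3% of all expressed genes in Lin- and 22.2% in CD11b+ cells. 47 of 141 members (33.3%) were bound in Lin- cells, where 31.3% of all expressed genes were. 42 members (29.8%) were bound in CD11b+ cells, where 22.2% of all expressed genes were. 25 members were bound in both cell types (14.4% of all expressed genes were), 22 only reached the call in Lin- cells, 17 only in CD11b+ cells, and 77 in neither. All 25 members bound in both had at least 1 site at an overlapping position in both cell types. For this overlap a peak in any 1 library, technical ones included, sufficed, and the same count was not made for all expressed genes. 33 members had no filtered peak in any of the 10 libraries (30.4% of all expressed genes had none), and with unknown read depth this does not show that they were unbound.

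Per library, 32.6 to 43.3% of the members carried a filtered peak in the 5 biological libraries, with a mean of 37.6 ± 3.9% (SD, n = 5) against 33.3 ± 2.0% (SD, n = 5) of the other expressed genes. The share was higher for members in 4 of 5 libraries, with a mean difference of 4.34 percentage points (exact paired permutation test, two-sided, p = 0.125, adjusted p = 0.2 over 8 tests). With 5 libraries this test cannot go below 0.062, and the tests of 3 against 2 libraries cannot go below 0.1, so none of the 8 tests in this report could reach 0.05. The share of all filtered peaks that lay on members was 1.21, 1.17 and 1.21% in the 3 Lin- libraries and 1.48 and 1.15% in the 2 CD11b+ libraries. The groups overlapped, and the means of 1.19 ± 0.025% (SD, n = 3) and 1.32 ± 0.23% (SD, n = 2) were not distinguished (exact permutation test, two-sided, p = 0.5, adjusted p = 0.5). Without CD11b+ replicate 1 the direction turned, to 0.041 percentage points higher in Lin-.

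In the smInputs, members held a smaller share of the peaks than in eCLIP. Before the input filter, 1.17 ± 0.14% (SD, n = 5) of eCLIP peaks lay on members, against 0.558 ± 0.137% (SD, n = 5) of smInput peaks, and the difference was positive in 5 of 5 pairs (exact paired permutation test, two-sided, p = 0.062, the smallest it allows, adjusted p = 0.167). The file headers name other deduplication and peak calling settings for inputs than for eCLIP, and the part of this in the difference was not tested. The smInputs paired with biological libraries held few peaks on members, 9, 7 and 6 in Lin- and 9 and 15 in CD11b+ cells. 23 members had a smInput peak in any library, and the same share of all expressed genes was not counted. Slc16a10 had the most, with 19 over the 10 inputs, and among the other genes described here Slc25a3 and Slc38a1 had the most, with 6 each.

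Members of higher level were bound more often, as were other genes. Among the 36 members in the upper tertile of expressed genes by level, 72.2% were bound in Lin- and 52.8% in CD11b+ cells, against 60.4% and 42.3% of the other genes of that tertile. In the middle tertile 28.8% and 30.8% of the 52 members were bound, against 25.9% and 17.5%. In the lower tertile 11.3% and 13.2% of the 53 members were bound, against 7.43% and 6.36%. Slc1a1 and Slc9a7 stood out from this order, since they were among the 5 highest in Lin- cells and had no peak in any of the 10 libraries. The eCLIP was made from WT cells only and the levels are means over both genotypes, so the level of these 2 genes in the cells used for eCLIP is not given here.

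Amino acid transporters held the most sites. 10 of 19 were bound in Lin- (31.3% of all expressed genes were) and 9 of 19 in CD11b+ cells (22.2% were), and 2 had no site. Slc38a2, which takes up glutamine and other small neutral amino acids, had 9, 8 and 12 peaks in the biological Lin- libraries and 3, 3 and 5 in the technical ones. It had 2 and 4 peaks in the biological CD11b+ libraries and 3 and 1 in the technical ones, so the Lin- biological libraries were all above the CD11b+ libraries. Its 19 merged sites in Lin- cells were the most of any member, and 12 of them touched coding exons, while the CD11b+ libraries gave 5 sites.

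The subunits of the leucine transporter CD98 followed the same order. Slc3a2, its heavy chain, had 4, 5 and 6 peaks in the biological Lin- libraries and 4, 4 and 3 in the technical ones, but 0 and 1 in the biological and 0 and 0 in the technical CD11b+ libraries. Slc7a5, its light chain, had 1, 5 and 3 peaks in the biological Lin- libraries, 0, 4 and 3 in the technical ones and 0 in all 4 CD11b+ libraries. Their levels were also lower in the CD11b+ table, by a centred log2 difference of -1.13 for Slc3a2 and -2.32 for Slc7a5.

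Slc38a1, Slc1a5, Slc38a10 and Slc43a2 were bound in both cell types, and Slc36a1 and Slc38a9 reached the call in CD11b+ cells alone. Slc38a1 had 2, 4 and 5 peaks in Lin- and 3 and 4 in CD11b+ biological libraries, and these ranges overlapped. Slc1a5 had 2, 3 and 2 against 1 and 1, and a single site of it was found in all 10 libraries, with 24 to 52 reads in Lin- and 9 to 26 in CD11b+ libraries. Slc38a10, a putative member of the family, had 3, 2 and 3 against 2 and 1. Slc36a1, a lysosomal amino acid exporter, showed the reverse, with 1, 0 and 0 peaks in Lin- and 4 and 3 in CD11b+ biological libraries. Slc43a2, a leucine transporter, had 0, 1 and 2 against 6 and 1. Slc38a9, the arginine sensor of the lysosome, had 1, 0 and 0 against 2 and 4, all 6 CD11b+ sites in introns and none of them found in both biological libraries.

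Of the 30 mitochondrial carriers, 13 were bound in Lin- (31.3% of all expressed genes were) and 5 in CD11b+ cells (22.2% were), and all 5 were also bound in Lin- cells. 9 had no site. Slc25a3 had 3, 5 and 5 peaks in biological and 2, 9 and 1 in technical Lin- libraries, and 5 in each of the 4 CD11b+ libraries. Slc25a12, the aspartate/glutamate carrier, had 3, 2 and 4 peaks in Lin- and 1 and 3 in CD11b+ biological libraries. Its intronic TG repeat was found in all 10 libraries and held the most reads of the sites described here in CD11b+ cells, with 97 and 255 in the biological and 92 and 209 in the technical libraries, and 28, 75 and 69 in the biological Lin- libraries. Slc25a37, the iron importer mitoferrin, had 2, 2 and 1 against 3 and 6. Slc25a5, with the highest level of all members per kb, had 2, 2 and 1 peaks in Lin- and 0 and 0 in CD11b+ biological libraries. Its span was 3.16 kb, against a median of 29.9 kb for members, and peak numbers were not divided by length. Slc25a1, the citrate carrier, had 1 peak in each biological Lin- library and 0 in all 4 CD11b+ libraries.

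Ion exchangers were bound in 5 of 16 cases in Lin- and 6 of 16 in CD11b+ cells. Zinc transporters were bound in 4 and 3 of 13 cases. Slc30a5, which brings zinc into the secretory pathway, had 2, 3 and 2 against 0 and 0, and Slc30a7, with the same task in the Golgi, had 0, 1 and 3 against 2 and 2. Of the 5 monocarboxylate transporters 2 were bound in Lin- and 3 in CD11b+ cells. Slc16a10, a transporter of aromatic amino acids, had 1, 14 and 4 peaks in Lin- and 5 and 4 in CD11b+ biological libraries, so Lin- replicate 2 stood apart, and all of its 9 and 8 sites were intronic. Slc16a6, a ketone body transporter, had 1, 2 and 2 against 4 and 2.

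The remaining classes were smaller. Of 10 vitamin, choline and peptide transporters 3 were bound in each cell type. Slc15a4, a histidine and peptide transporter of endolysosomes, had 1, 5 and 6 peaks in Lin- and 0 and 0 in CD11b+ biological libraries, and all 10 Lin- sites touched coding exons. Slc44a2 had 5, 2 and 3 against 2 and 2. Of 8 metal and heme transporters none was bound in Lin- (31.3% of all expressed genes were) and 3 were bound in CD11b+ cells (22.2% were), namely Slc11a1, Slc31a2 and Slc48a1. Of 12 lipid and acyl transporters 2 and 4 were bound. Slc27a1 had 2, 0 and 1 peaks against 0 and 0, and Slc22a15, an organic ion transporter, had 0, 1 and 1 against 2 and 2.

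2 of 7 hexose transporters were bound in each cell type, and Slc2a9 had 0, 1 and 0 peaks in Lin- against 5 and 4 in CD11b+ biological libraries. Slc50a1, a sugar exporter with the highest level per kb of its class, had 0, 1 and 1 against 1 and 1. Of 4 nucleoside transporters 2 and 1 were bound. Slc29a3, a lysosomal nucleoside transporter, had 0, 2 and 2 peaks in Lin- and 8 and 1 in CD11b+ biological libraries, with 4 and 0 in the technical ones. Slc29a1, of the plasma membrane, had 1, 1 and 0 against 0 and 0. Slc35a4 was the only bound gene of 5 nucleotide sugar transporters, with 1, 1 and 2 peaks in Lin- and 1 and 0 in CD11b+ biological libraries. Of 4 phosphate and sulfate transporters, Slc20a1, a phosphate importer, had 4, 1 and 0 against 0 and 0. Slc49a4, a transporter of the lysosomal membrane outside the classes above, had 1, 2 and 2 peaks in Lin- and 6 and 7 in CD11b+ biological and 7 and 6 in CD11b+ technical libraries, and all 9 CD11b+ sites were intronic. Its mean was 2816 normalized counts in the Lin- and 2853 in the CD11b+ table, a centred log2 difference of 0.76.

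**Figure D2:**
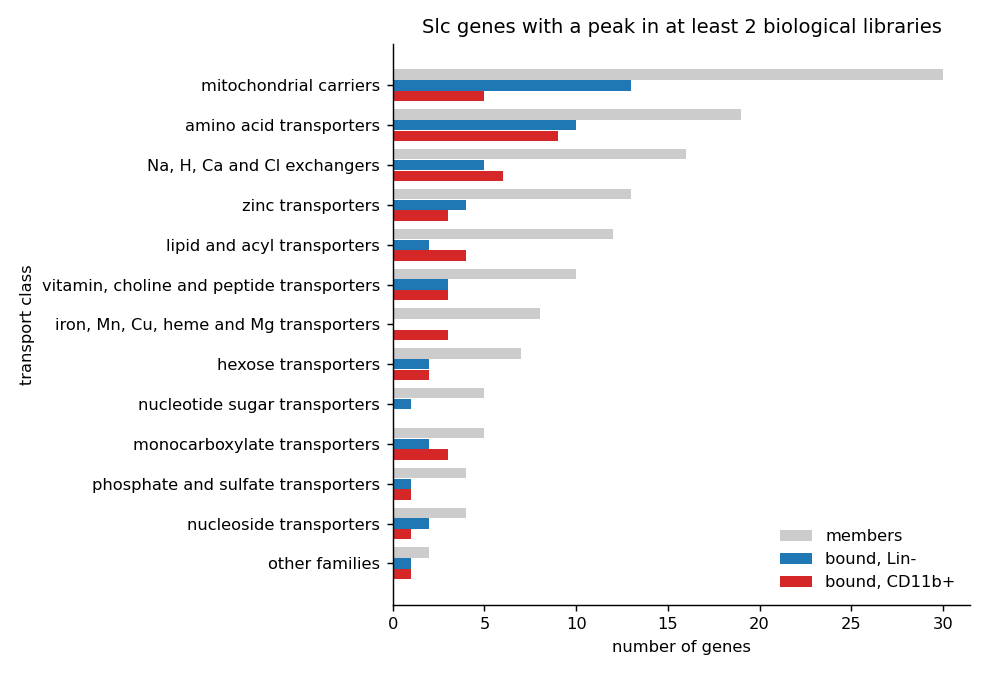
Number of genes in each transport class (grey) and of those with a filtered peak in at least 2 biological libraries of Lin- (blue) or CD11b+ cells (red). Mitochondrial carriers were bound in 13 of 30 cases in Lin- and 5 of 30 in CD11b+ cells, and metal and heme transporters in 0 and 3 of 8, where 31.3% and 22.2% of all expressed genes were.

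Members with peaks in every biological library of a cell type and in no library of the other, technical libraries included, were counted as bound in that cell type only. 9 members (6.38%) met this rule for CD11b+ cells, where 2.95% of all expressed genes did, and 2 members (1.42%) for Lin- cells, where 2.18% did. The Lin- pair was Slc7a5 and Slc25a1. The CD11b+ genes were Slc11a1 with 2 peaks in each of the 4 libraries, Slc8a1, a sodium/calcium exchanger, with 2, 2, 2 and 0, Slc37a3 with 2, 1, 2 and 0, and Slc39a3, a zinc importer, with 1, 2, 0 and 0. The other 5 had 1 peak in each biological library and were Slc16a3, the lactate exporter of glycolytic cells, Slc22a4, Slc48a1, the sulfate transporter Slc26a2 and Slc7a7, an exporter of basic amino acids. 7 of the 9 had a positive centred log2 level difference, from 0.36 for Slc48a1 to 2.90 for Slc11a1, and Slc37a3 and Slc8a1 had -0.78 and -0.70. For Slc16a3 and Slc37a3 the peaks of the 2 biological libraries did not overlap. The CD11b+ count rose to 17 without CD11b+ replicate 1 (6.44% of all expressed genes) and to 14 without replicate 2 (6.20%), since a single library then sufficed. The Lin- count rose to 4 without Lin- replicate 3 (3.50% of all expressed genes) or without CD11b+ replicate 2 (2.97%).

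**Figure D3:**
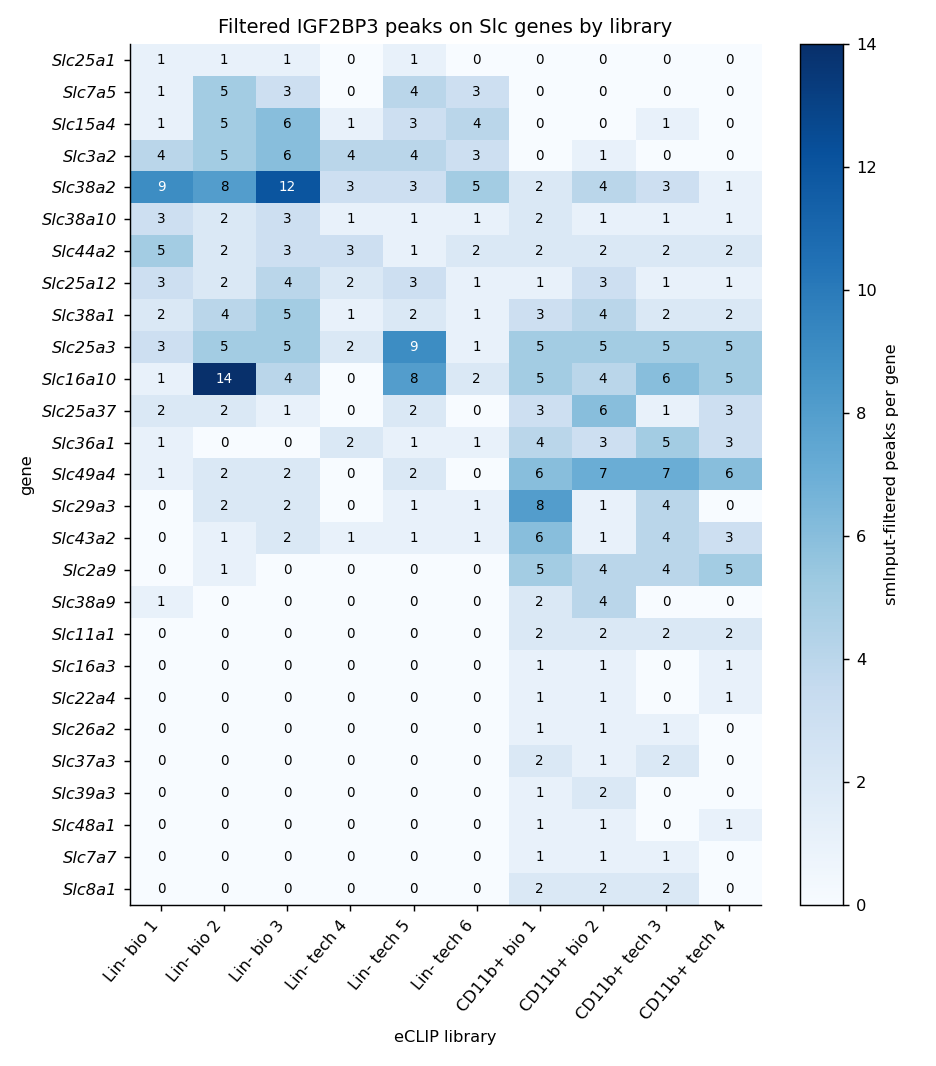
Number of smInput-filtered peaks per gene (rows) and eCLIP library (columns) for most of the genes with the most sites in either cell type and those with peaks in a single cell type. Slc38a2, Slc3a2, Slc7a5 and Slc15a4 carry their peaks mainly in the 6 Lin- libraries, and the genes from Slc11a1 downwards only in the 4 CD11b+ libraries.

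Overlapping peaks merged into 257 sites on 82 members in Lin- cells and 220 sites on 87 members in CD11b+ cells. Most sites came from a single library, 158 in Lin- (61.5%) and 117 in CD11b+ cells (53.2%), much as on the other expressed genes (63.0% and 56.7%). 59 Lin- sites on 34 members and 51 CD11b+ sites on 34 members were found in at least 2 biological libraries, and these are the recurrent sites. 4 of the Lin- and 29 of the CD11b+ sites were present in every library of their cell type. 69 Lin- sites (26.8%) overlapped a CD11b+ site, and 70 CD11b+ sites (31.8%) overlapped a Lin- site, against 23.7% and 28.9% on the other expressed genes.

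The place of the peaks within members differed widely between the cell types, as it did on other genes. Coding exons, which were given precedence where a peak also touched an intron, held 51.7, 33.3 and 51.4% of member peaks in the biological Lin- libraries and 5.56 and 6.90% in the CD11b+ ones. Introns held 40.4, 51.3 and 41.0% in Lin- and 74.6 and 85.3% in CD11b+ cells. The 3′ UTR, where IGF2BP proteins are best known to bind, held 4.49, 7.69 and 2.86% of member peaks in Lin- cells, a mean of 5.01 ± 2.5% (SD, n = 3). In CD11b+ cells it held 13.5 and 6.03% in the biological libraries, a mean of 9.76 ± 5.3% (SD, n = 2), and 13.2 and 4.82% in the technical ones. The 3′ UTR shares of the cell types overlapped, with a difference (Lin- minus CD11b+) of -4.75 percentage points (exact permutation test, two-sided, p = 0.3, adjusted p = 0.4). It was -1.02 without CD11b+ replicate 1 and -8.48 without CD11b+ replicate 2.

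The place of member peaks was then compared with that on the other expressed genes of the same library. The coding exon share was 29.8% on members against 35.3% on other genes, lower in 5 of 5 biological libraries, with a mean difference of -5.53 percentage points (exact paired permutation test, two-sided, p = 0.062, adjusted p = 0.167). The intron share was 58.5 against 51.5%, higher in 5 of 5 libraries by 7.00 percentage points (exact paired permutation test, two-sided, p = 0.062, adjusted p = 0.167). Technical Lin- library 4 went the other way on both, with 63.6 against 56.1% in coding exons and 29.55 against 34.79% in introns. The other technical libraries kept the direction of the biological ones. The 3′ UTR share was 6.91 against 6.32%, higher in 3 of 5 libraries (exact paired permutation test, two-sided, p = 0.375, adjusted p = 0.429). Members were longer genes, and the part of length in these differences was not tested. With peaks of a deposited value below 0.001 alone, the coding exon difference was 0.298 percentage points, in the opposite direction (exact paired permutation test, two-sided, p = 0.938), and the intron difference was 1.70 (same test, p = 0.562). With each peak placed by its midpoint, the differences were -3.35 and 4.43 percentage points.

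**Figure D4:**
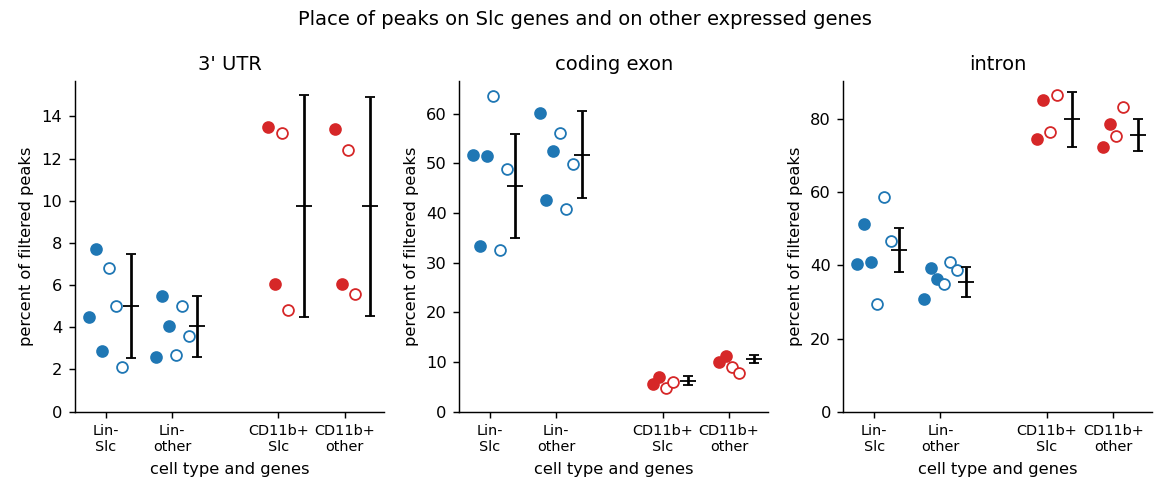
Percent of filtered peaks in the 3′ UTR, coding exons and introns, for the 141 Slc genes and for the other expressed genes; each point is a library (filled, biological; open, technical), and bars give the mean and SD of the biological libraries. Coding exons hold 33.3 to 51.7% of Slc peaks in biological Lin- libraries and 5.56 to 6.90% in CD11b+ ones.

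Most of the peaks counted to coding exons were not inside them but crossed an exon edge. This measure was chosen after its values were seen and is given without a test. In the biological Lin- libraries, 44 of 46, 25 of 39 and 48 of 54 coding exon peaks of members crossed an exon edge, and in the CD11b+ libraries 6 of 7 and 8 of 8 did. Peaks across a 3′ splice site, where an intron ends, made up 47.2% (95% Wilson interval 37.2 to 57.5%), 15.4% (9.96 to 23.0%) and 31.4% (23.3 to 40.8%) of member peaks in the biological Lin- libraries. They made up 4.76% (2.2 to 10%) and 5.17% (2.39 to 10.8%) in the CD11b+ libraries. The intervals cover counting error only. All Lin- shares lay above the CD11b+ shares, and the interval of Lin- replicate 2 lay below those of the other Lin- replicates, which overlapped each other. The technical Lin- libraries gave 59.1, 12.5 and 31.9%, and the technical CD11b+ libraries 3.77 and 4.82%. On other expressed genes the biological shares were 47.6, 15.8 and 34.5% in Lin- and 5.15 and 6.38% in CD11b+ cells, so other genes showed the same order.

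Among the 59 recurrent sites of Lin- cells, 32 touched coding exons, 30 of these crossed an exon edge and 26 crossed a 3′ splice site. 21 recurrent 3′ splice site sites began in an intron and could be read into a coding exon without touching a UTR, and all 21 had AG as the last intron bases. In the 20 of them with enough intron, a median of 14.5 of the last 20 intron bases were C or T, from 10 to 18. These sites were picked for crossing annotated intron ends, so their AG and pyrimidines are not a result about IGF2BP3. Intron ends without a site were not compared. Recurrent sites of CD11b+ cells numbered 51, of which 38 lay in introns, 7 touched coding exons and 4 lay in 3′ UTRs.

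In Slc38a2, 9 sites recurred in Lin- cells. The site printed first above had 8, 0 and 14 reads in the biological libraries and 3, 5 and 7 in the technical ones, and the second had 17, 13 and 7 and then 3, 0 and 8. The last of them was found in the 3 biological libraries alone, with 27, 7 and 12 reads. Slc3a2 had 4 recurrent sites, and the second one printed was found in all 6 Lin- libraries with 11, 4 and 3 reads in the biological and 4, 6 and 8 in the technical libraries. The Slc38a1 site had 18, 10 and 7 reads and then 4, 4 and 0. The Slc44a2 site had 10, 24 and 17 reads in the biological Lin- libraries and recurred in CD11b+ cells at an overlapping position with 26 and 7 reads. Read numbers are those in the deposited peak names and are not scaled to depth, so they are not compared between libraries.

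CA repeats were present in a part of the peaks. A peak was counted where it held ACACAC or CACACA, 6-mers that overlap each other in a repeat, on the strand of the peak. Among member peaks 6.74, 17.9 and 16.2% did in the biological Lin- libraries and 11.9 and 20.7% in the CD11b+ ones, so the cell types overlapped. On members the mean was 14.7 ± 5.5% (SD, n = 5) against 10.2 ± 6.2% (SD, n = 5) on the other expressed genes, higher in 4 of 5 libraries, by 4.51 percentage points (exact paired permutation test, two-sided, p = 0.125, adjusted p = 0.2). 8 of the 59 recurrent Lin- sites and 11 of the 51 recurrent CD11b+ sites held such a 6-mer.

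TG repeats, counted as GTGTGT or TGTGTG on the strand of the peak after such sites had been seen, were more frequent than CA repeats on members in all 4 CD11b+ libraries, and less frequent in Lin- biological replicates 2 and 3. In member peaks they were found in 13.5, 13.7 and 7.62% of the biological Lin- peaks and in 23.0 and 35.3% of the CD11b+ peaks, so that both CD11b+ libraries lay above the Lin- ones. On other expressed genes the shares were 6.34, 7.46 and 6.23% in Lin- and 20.8 and 25.3% in CD11b+ cells, lower than on members in each of the 5 libraries. No test was run on this count. 8 of 59 recurrent Lin- sites and 15 of 51 recurrent CD11b+ sites held a TG 6-mer. Only 1 member peak of the biological libraries, in CD11b+ replicate 1, held both kinds of 6-mer.

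**Figure D5:**
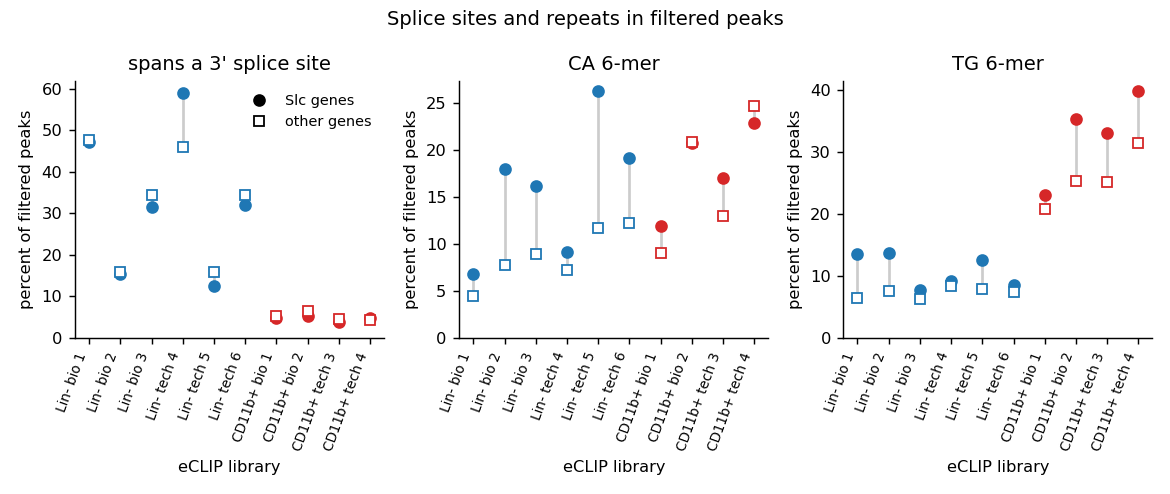
Percent of filtered peaks that cross a 3′ splice site, hold a CA 6-mer or hold a TG 6-mer, in each eCLIP library (blue, Lin-; red, CD11b+), for Slc genes (filled circles) and other expressed genes (open squares). Peaks across 3′ splice sites make up 15.4 to 47.2% of Slc peaks in biological Lin- libraries and about 5% in CD11b+ ones, whereas TG repeats are more frequent in all 4 CD11b+ libraries.

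The printed repeats of CD11b+ cells were all present in the technical CD11b+ libraries, whereas 29 of all 51 recurrent CD11b+ sites were found in every library. Technical libraries repeat biological ones and the printed examples all came from those 29 sites, so this is not an independent check. The CA repeat of Slc44a2 had 14 and 25 reads in the biological and 18 and 21 in the technical CD11b+ libraries, and that of Slc49a4 had 8 and 36 and then 13 and 30. The 3′ UTR repeat of Slc31a2 was found in all 4 CD11b+ libraries with 10 and 12 and then 16 and 5 reads, and it was 1 of only 4 recurrent 3′ UTR sites of members in CD11b+ cells. The intron sites of Slc2a9 and Slc11a1, which hold neither repeat in the printed window, were also found in all 4 CD11b+ libraries, with 29 and 28 and then 27 and 20 reads in Slc2a9 and 7 and 4 and then 11 and 4 in Slc11a1. Neither overlapped a site of Lin- cells.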

How the data were processed

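The members, gene lists and transport classes were chosen with earlier results of these data known. Peaks across splice sites and TG repeats were counted after the data had been seen, as was the alternative without the 7 suffixed symbols.

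RNA-seq reads were mapped to mm10 with STAR 2.5.3a by the authors, who compared genotypes with DESeq2. The deposited tables hold a mean normalized count per gene (signal, the authors' mean over 6 libraries), and columns of the authors' genotype comparison with fold changes, p-values and labels of bound genes, which were not used. For eCLIP, the authors called peaks with CLIPper in each library and filtered them on smInput. Their deposited peak files give the place, the gene identifier, a read number and a value from 0 to 0.05, read as the CLIPper p and used in 1 alternative only.

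Peaks were joined to genes by Ensembl identifier and placed with GENCODE M21 (basic set) in the order 3′ UTR, coding exon, 5′ UTR, noncoding exon and intron. Sequences came from GRCm38.p6. Peaks that overlapped by at least 1 nt were merged per cell type. Python 3.11.15, pandas 2.3.3, NumPy 2.4.6, SciPy 1.17.1 and pysam 0.24.0 were used. The scripts were tested on simulated data. Single values per library were compared by exact permutation over biological libraries, with Benjamini-Hochberg adjustment over 8 tests, and eCLIP was paired with the smInput of the same number. The labels pair eCLIP with its input, but numbers do not pair Lin- with CD11b+ libraries.

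Genes were named by rule: the 10 with the most sites in each cell type, the 5 of highest level per kb in each cell type, the 5 with the largest rise and fall in rank, every member bound in a single cell type, in each class the gene of highest level and the gene with the most sites, and those next to the threshold. A gene that the rule names and some marker genes are not reported here. The suffixed symbols outside this rule are named only to describe the members. Alternatives concerned the peak filter, the peak value, the level threshold (50 or 200), each biological replicate, technical libraries, the annotation of peaks and the motif.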

Additional observations from a re-analysis of the deposited data

How the results depend on the processing

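Of 134 alternative values, 2 turned in direction; with biological libraries alone neither the paired tests nor those of 3 against 2 could pass 0.05, so their p-values say nothing on stability. With a peak value below 0.001, the coding exon difference between members and other genes turned to 0.298 percentage points (exact permutation test, p = 0.938), the intron difference to 1.70 (exact permutation test, p = 0.562), and 26 members were bound in Lin- cells (14.7% of expressed genes). Each biological replicate left out in turn gave 31 to 47 bound members in Lin- (20.0 to 31.3% of expressed genes), 3 to 4 in Lin- only (2.83 to 3.81%), 10 to 17 in CD11b+ only (3.33 to 6.44%), all above the counts of 2 and 9 with every replicate, and a Lin- minus CD11b+ difference of the share of peaks between -0.28 and 0.0406, reversed without CD11b+ replicate 1. 6 members (2.99% of expressed genes) were bound in Lin- only when technical CD11b+ libraries were ignored. A peak in any library gave 82 bound members in Lin- (57.1% of expressed genes) and 87 in CD11b+ cells (51.3%). With all 10 libraries, in which technical repeats are not independent, the differences were 0.57 for eCLIP against smInput (p = 0.00195), 4.05 for genes with a peak (p = 0.0117), 6.02 for introns (p = 0.0156) and 4.83 for CA 6-mers (p = 0.00977), but -3.52 for coding exons (p = 0.0586), 0.575 for the 3′ UTR (p = 0.328) and -0.143 for Lin- minus CD11b+ (p = 0.109, all exact permutation tests), and 1 smInput in that set had only 217 peaks. Without the replicate block, eCLIP against smInput gave 0.61 with p = 0.00794 (exact permutation test). With replicate number as a block (replicate block), the share of peaks differed by -0.129 percentage points between the cell types (Lin- minus CD11b+, exact permutation test, p = 1). Without division by length, the median percentiles were 43.7 and 40.5. Without the 7 suffixed symbols, 46 and 41 of 134 members were bound, beside 31.3% and 22.2% of expressed genes. Unknown read depth and 2 or 3 biological libraries limit every binding call.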
